A study of Mus musculus with 6 samples.

Results

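Metabotropic glutamate receptors are G protein-coupled receptors for glutamate, the transmitter of photoreceptors, bipolar cells and ganglion cells. The 6 genes described here, Grm2, Grm3, Grm4, Grm5, Grm7 and Grm8, are members of this family other than Grm6, and were taken by name from the array annotation. They had 7 probe sets (groups of probes summarized to 1 value) that carried no other gene symbol, 2 of them for Grm7, out of 23521 probe sets with 1 symbol for 22180 genes. Total retinal RNA of 15-day-old 129SvJ mice was compared between SIRT6 KO and SIRT6 WT animals, 3 samples of each genotype, on Affymetrix Mouse Gene 2.1 ST arrays. SIRT6 is a NAD-dependent deacylase of histones, and the KO lacks it in the whole animal. Such mice become severely hypoglycemic and die young, which limits the model for a retinal role of SIRT6. The labels do not say whether a sample held the retinas of 1 animal or of several, so that the p-values measure the spread between these samples, which may in part be technical.

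The family is divided into groups by sequence and by coupling. Group I (here Grm5) acts through Gq and phospholipase C, while group II (Grm2 and Grm3) and group III (Grm4, Grm7 and Grm8, with Grm6) act through Gi/o proteins and lower cyclic AMP. Group III receptors sit mostly on presynaptic terminals, where they curb glutamate release, with Grm6 as the exception that serves ON bipolar cells as their postsynaptic receptor. In the rodent retina mGluR8 has been found on photoreceptor terminals, mGluR7 at bipolar cell terminals and mGluR2 on starburst amacrine cells.

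The KO mean was below the WT mean for 6 of the 7 probe sets, with Grm3 as the exception. Grm8 and 1 of the Grm7 probe sets had a limma p below 0.05 before adjustment for the number of tests (the nominal, or unadjusted, p), at 0.766 and 0.716 times the WT level. The other Grm7 probe set showed almost no difference. The median log2 fold change of the 7 was -0.25, beside -0.01 over all 23521 probe sets, of which 51.8% had a lower mean in KO. No receptor passed after Benjamini-Hochberg adjustment over all probe sets (limma, adjusted p = 0.99991 each).

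Sirt6, the deleted gene, had log2 intensities of 6.47, 7.15 and 6.83 in KO replicates 1 to 3 and 9.34, 9.14 and 9.32 in WT replicates 1 to 3. Across all probe sets tested, limma called 0.00425% lower in KO, which is Sirt6 alone, and 0% higher after adjustment. By the nominal p it called 0.961% lower and 0.897% higher, and the 3 KO values lay below the 3 WT values in 3.67% and above them in 1.98%. With quantile normalization applied again, 2.62% were lower and 1.28% higher at a nominal p under 0.05. Both replicates numbered 2 stood apart, with an interquartile range of log2 intensity of 2.60 in KO replicate 2 and 2.48 in WT replicate 2, against 2.85 to 3.07 in the other samples. Photoreceptor markers summed to intensities of 51119 to 55473 in KO and 54706 to 59379 in WT samples over the 10 of 12 genes measured, and the dimmest of the 10, Nrl, had a mean log2 intensity of 10.75. The lowest value of any receptor probe set, 7.17 in KO replicate 3 for Grm4, was above the median log2 intensity of every array, which lay between 6.94 and 7.09. That median covers all 41345 probe sets and is no threshold of detection. Of the skeletal muscle markers, Tnnt3 (means of 7.29 in KO and 7.37 in WT) and Acta1 (7.83 and 7.90) also lay above it, while Ckm, Myh1 and Myh4 had means below it. Intensities of different probe sets depend on their probes and are not compared with each other below.

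To compare letters near the starts of group III genes with a lower signal in KO, the promoter windows of Grm7 and Grm8 are shown beside those of the group II genes, Grm2 and Grm3. Each runs from 250 bases before to 50 bases after a RefSeq transcription start (GRCm38.p6), read 5′ to 3′ on the strand of the gene. Of several starts the most upstream is given for Grm7, which has 2 windows, and for Grm8, which has 3. Capitals mark matches, on either strand, to a GC box (GGGCGG), an E-box (CANNTG) and the core letters of the hypoxia response element (ACGTG or GCGTG). In Grm3 the capitals are 2 GC boxes end to end.
Grm7: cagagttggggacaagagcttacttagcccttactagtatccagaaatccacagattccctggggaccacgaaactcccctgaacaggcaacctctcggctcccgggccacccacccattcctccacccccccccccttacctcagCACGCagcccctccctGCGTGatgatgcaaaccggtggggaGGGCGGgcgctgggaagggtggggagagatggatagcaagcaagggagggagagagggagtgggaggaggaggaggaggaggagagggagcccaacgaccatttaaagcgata
Grm8: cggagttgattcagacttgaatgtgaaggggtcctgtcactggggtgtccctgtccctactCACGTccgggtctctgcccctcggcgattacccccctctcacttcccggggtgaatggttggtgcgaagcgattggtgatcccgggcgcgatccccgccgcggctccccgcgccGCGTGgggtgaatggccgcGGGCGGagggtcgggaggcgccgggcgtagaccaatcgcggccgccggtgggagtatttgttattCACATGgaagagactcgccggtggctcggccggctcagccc
Grm2: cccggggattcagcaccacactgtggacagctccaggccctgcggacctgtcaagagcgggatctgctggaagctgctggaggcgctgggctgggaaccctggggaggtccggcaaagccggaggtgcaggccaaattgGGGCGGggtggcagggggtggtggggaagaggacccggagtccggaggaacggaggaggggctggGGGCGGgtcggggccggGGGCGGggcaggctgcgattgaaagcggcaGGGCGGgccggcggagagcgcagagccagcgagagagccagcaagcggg
Grm3: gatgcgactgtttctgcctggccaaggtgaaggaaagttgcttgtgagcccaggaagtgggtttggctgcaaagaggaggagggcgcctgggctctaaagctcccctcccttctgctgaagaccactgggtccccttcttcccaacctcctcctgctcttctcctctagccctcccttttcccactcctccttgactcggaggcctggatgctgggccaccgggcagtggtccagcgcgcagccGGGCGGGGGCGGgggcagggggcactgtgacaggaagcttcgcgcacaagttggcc

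The Grm8 window (chr6:28135097-28135396, minus strand) held 33 CpG dinucleotides, more than 91.4% of the 32851 windows in the table, where the median is 7. It contained 1 GC box, 1 E-box and 1 match to each hypoxia core. The other Grm8 windows differed from it, with 10 CpG and 2 CpG, 0 GC boxes and 0 hypoxia cores in either, and 1 E-box in the last. The Grm7 window (chr6:110645262-110645561, plus strand) had 10 CpG, 1 GC box and 2 matches to GCGTG, and the second Grm7 window, which overlaps it, held the same matches. The Grm2 window (chr9:106656060-106656359, minus strand) held 22 CpG with 4 GC boxes, and the Grm3 window (chr5:9725303-9725602, minus strand) 11 CpG with 2. Neither of the group II windows had a match to a hypoxia core or to an E-box. None of the windows of these genes held TAATCC, the letters bound by the photoreceptor factors OTX2 and CRX, or TATAAA. Over all windows 35.7% held a GC box, 72.3% an E-box, 32.4% GCGTG, 19.6% ACGTG, 7.06% TAATCC and 13.6% TATAAA, and these counts describe letters and no binding. The cores of the hypoxia element can overlap an E-box or each other in part. Grm4 and Grm5 have no entry in the table.

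Grm8, a presynaptic receptor of group III, had a lower signal in every KO sample than in any WT sample. Its probe set (17465272) had log2 intensities of 8.21, 8.27 and 8.19 in KO replicates 1 to 3, against 8.54, 8.59 and 8.70 in WT replicates 1 to 3. The groups lay 0.26 apart at their nearest values, more than the range within either. The means were 8.23 ± 0.04 in KO and 8.61 ± 0.08 in WT samples (SD, n = 3 each), or intensities of 292 to 309 against 372 to 416. The log2 fold change of -0.38 had a standard error of 0.15 and a 95% interval of -0.73 to -0.04 (limma, unadjusted p = 0.032). An exact permutation test gave 0.10 (two-sided), and 3 samples against 3 allow no smaller p. The difference within each replicate number was -0.32, -0.32 and -0.51, a smaller spread than that of the other 6 probe sets. The nominal p rose above 0.05 without KO replicate 1 (0.082), KO replicate 2 (0.064), KO replicate 3 (0.072), WT replicate 1 (0.071) or WT replicate 3 (0.123), with 5 arrays left, while the log2 fold change stayed between -0.42 and -0.34. A further probe set on the array names Grm8 together with Mir592 and was not used.

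Grm7, the group III receptor with the lowest affinity for glutamate, gave different answers on its 2 probe sets. On the first (17461448) the log2 intensities were 7.87, 7.66 and 7.55 in KO replicates 1 to 3 and 8.21, 7.88 and 8.44 in WT replicates 1 to 3. The groups did not overlap, but KO replicate 1 and WT replicate 2 were only 0.01 apart. The log2 fold change was -0.48 (standard error 0.19, 95% interval -0.93 to -0.04), from 7.69 ± 0.16 in KO and 8.18 ± 0.28 in WT (SD, n = 3 each), and the nominal p was 0.037 (limma), against 0.10 in the exact permutation test. On the second (17469601) the KO values of 8.36, 8.42 and 8.33 lay inside the WT range, which held 8.41, 8.13 and 8.61. Its log2 fold change was -0.01 (standard error 0.18, 95% interval -0.41 to 0.39, exact permutation p = 1.0). The intervals of the probe sets overlap between -0.41 and -0.04. Which transcripts of Grm7 each probe set reads is not given in the sources used here. On the first probe set the call ended without KO replicate 2 (unadjusted p = 0.082), KO replicate 3 (0.110), WT replicate 1 (0.097) or WT replicate 3 (0.149), and with median centring (0.055), which also made the groups overlap.

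Grm4, the remaining presynaptic receptor of group III, had log2 intensities of 7.27, 7.22 and 7.17 in KO replicates 1 to 3, against 7.38, 7.43 and 7.60 in WT replicates 1 to 3 (probe set 17342719). Every KO value was below every WT value, with 0.11 between the nearest. The means were 7.22 ± 0.05 in KO and 7.47 ± 0.11 in WT samples (SD, n = 3 each). The log2 fold change of -0.25 (standard error 0.15, 95% interval -0.60 to 0.10) did not pass in limma (nominal p = 0.141), and the exact permutation p was 0.10. With Grm4, the probe sets whose genotypes did not overlap came to 3 of 7, all lower in KO and all of group III, beside the 3.67% of all probe sets that were lower in this way. At a nominal p under 0.05 the count was 2 of 7, beside 0.961%.

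Grm5, the receptor of group I, had overlapping genotypes and a large spread. The KO values were 8.28, 7.99 and 7.78 and the WT values 8.46, 8.04 and 8.56 in replicates 1 to 3 (probe set 17480002). KO replicate 1 lay above WT replicate 2, and every other KO value was below every WT value. The log2 fold change was -0.34 (standard error 0.21, 95% interval -0.81 to 0.14) and did not pass (nominal p = 0.142 from limma, exact permutation p = 0.20). The difference within a replicate number was -0.18, -0.05 and -0.78, and most of the mean came from the samples numbered 3. Without KO replicate 3 the log2 fold change was -0.22. Without WT replicate 2 it was -0.49 with a nominal p of 0.031 (limma), in a fit that put 3.50% of all probe sets lower at this threshold.

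The group II receptors showed no fall beyond their spread. Grm3, which glial cells of the brain use along with neurons, had log2 intensities of 8.01, 7.59 and 8.11 in KO replicates 1 to 3, against 7.51, 7.54 and 7.96 in WT replicates 1 to 3 (probe set 17445596). Its log2 fold change was 0.23 (standard error 0.21, 95% interval -0.24 to 0.71), and it did not pass (nominal p = 0.292 from limma, exact permutation p = 0.20). The KO value was above the WT value in each replicate number, by 0.49, 0.05 and 0.15. For Grm3 the log2 fold change moved with single samples and was 0.13 without KO replicate 3, 0.15 without WT replicate 1, 0.39 without KO replicate 2 and 0.38 without WT replicate 3. Grm2, the other receptor of the group, had 8.54, 8.21 and 8.68 in KO and 8.73, 8.17 and 8.83 in WT replicates 1 to 3 (probe set 17530733). The samples numbered 2 were the lowest of either genotype, and the groups overlapped almost wholly. The log2 fold change of Grm2 was -0.10 (standard error 0.22, 95% interval -0.61 to 0.41, exact permutation p = 0.60). These intervals leave room for a fall to 0.846 times the WT level for Grm3 and to 0.655 times for Grm2.

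**Figure D1:**
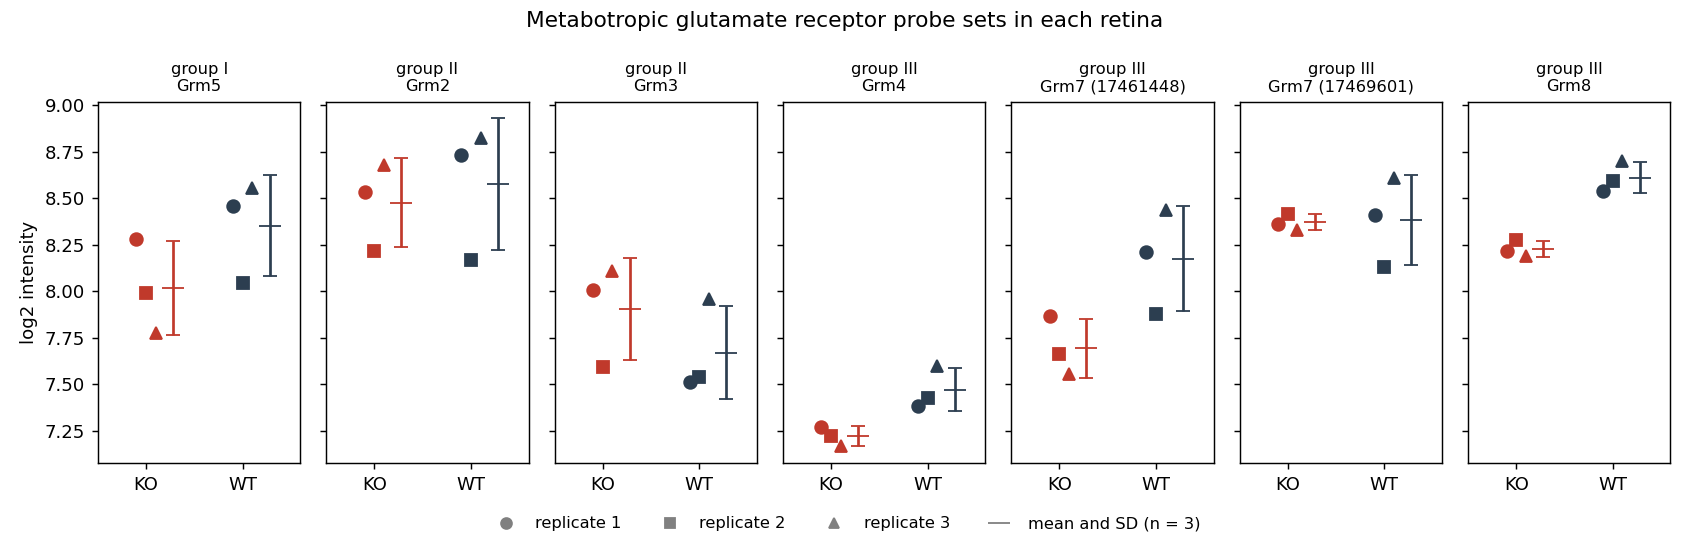
Log2 intensity (vertical axis) of the 7 probe sets in each of 3 KO and 3 WT retinal samples, with the mean and SD of each genotype beside the points and the replicate number as the symbol. Grm8, Grm4 and Grm7 probe set 17461448 have every KO point below every WT point, while the KO points of Grm7 probe set 17469601 lie between 8.33 and 8.42, inside the WT range.

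**Figure D2:**
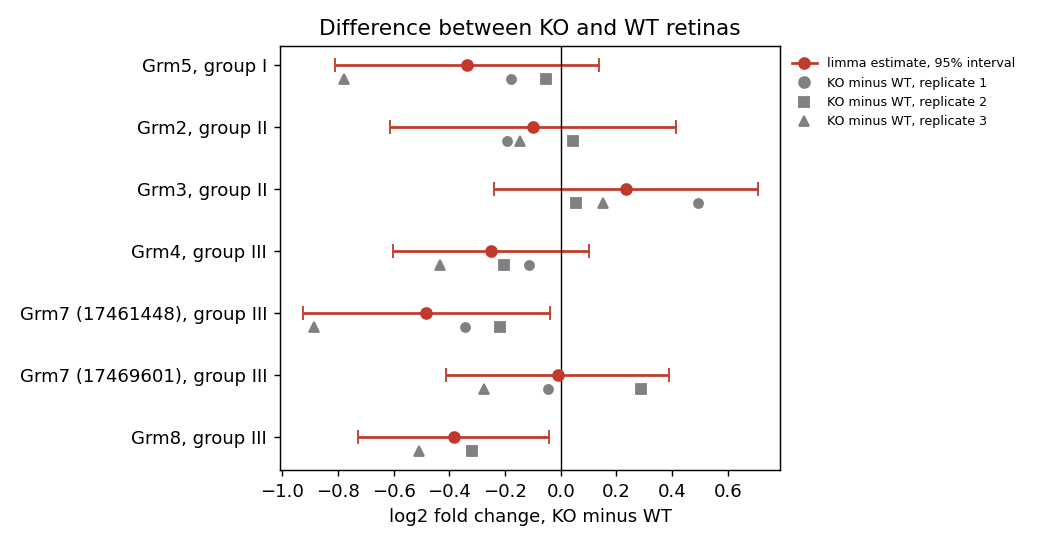
Log2 fold change (horizontal axis, KO minus WT) of the 7 probe sets, as the limma estimate with its 95% interval (red) and as the difference within each replicate number (gray). The intervals of Grm8 (-0.73 to -0.04) and Grm7 probe set 17461448 (-0.93 to -0.04) lie below 0, and the other 5 include 0.

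When the members of each group were averaged as log2 differences from the WT mean, group III lay at -0.30, -0.37 and -0.45 in KO replicates 1 to 3 and at -0.04, -0.12 and 0.16 in WT replicates 1 to 3. Group II lay at 0.15, -0.22 and 0.27 in KO and at -0.00, -0.27 and 0.27 in WT. Its genotypes overlapped, and the samples numbered 2 were the lowest of each. It averages a member with a higher mean in KO (Grm3, 0.23) and another with a lower mean (Grm2, -0.10), so that these differences partly cancel. Grm5 alone stood for group I, at -0.07, -0.36 and -0.58 in KO and 0.11, -0.31 and 0.20 in WT. The Grm7 probe set with the larger variance was used here, as in the study's methods. With the other Grm7 probe set, group III lay at -0.20, -0.18 and -0.26 in KO and at -0.04, -0.10 and 0.15 in WT, again without overlap. Grm8 and Grm4, each without overlap by itself, are in both averages. These averages are given without a test, since the members were chosen with earlier results known.

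The groups were set against each other through the log2 ratio of 2 members within a sample, in 11 pairs. Relative to Grm3, the mean ratio was lower in KO than in WT samples for Grm7 (a difference of -0.72 on the log2 scale, SD 0.32 in KO and 0.18 in WT), Grm8 (-0.62, SD 0.31 and 0.17) and Grm4 (-0.48, SD 0.29 and 0.14), each time without overlap. The ratio of Grm8 to Grm3, as a difference from its WT mean, was -0.73, -0.26 and -0.86 in KO replicates 1 to 3 and 0.08, 0.11 and -0.20 in WT replicates 1 to 3. Relative to Grm2, Grm7 was lower without overlap (-0.38), while Grm8 (-0.29) and Grm4 (-0.15) overlapped. Of the 6 pairs of group III over group II, 4 were thus lower in KO without overlap. Most of the 4 are ratios to Grm3, whose own mean was higher in KO. Of the 3 pairs of group III over group I, 0 were separated in either direction. The share of separated pairs among all pairs of probe sets was not worked out, so these counts have no background beside them. Within the replicate numbers, 2 of the overlapping pairs were also lower in KO each time, Grm7 over Grm5 (-0.17, -0.16 and -0.11) and Grm8 over Grm2 (-0.13, -0.36 and -0.36). Grm3 relative to Grm5 was higher in KO by 0.57, again without overlap. Each of the 5 separated pairs had the smallest exact permutation p possible, 0.10 two-sided, or 0.22 after Benjamini-Hochberg adjustment over the 11 pairs. No pair could therefore pass, and the pairs share genes and samples. Both Grm7 pairs rest on probe set 17461448, and with the other Grm7 probe set in its place 3 pairs were separated, each of them with Grm3.

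**Figure D3:**
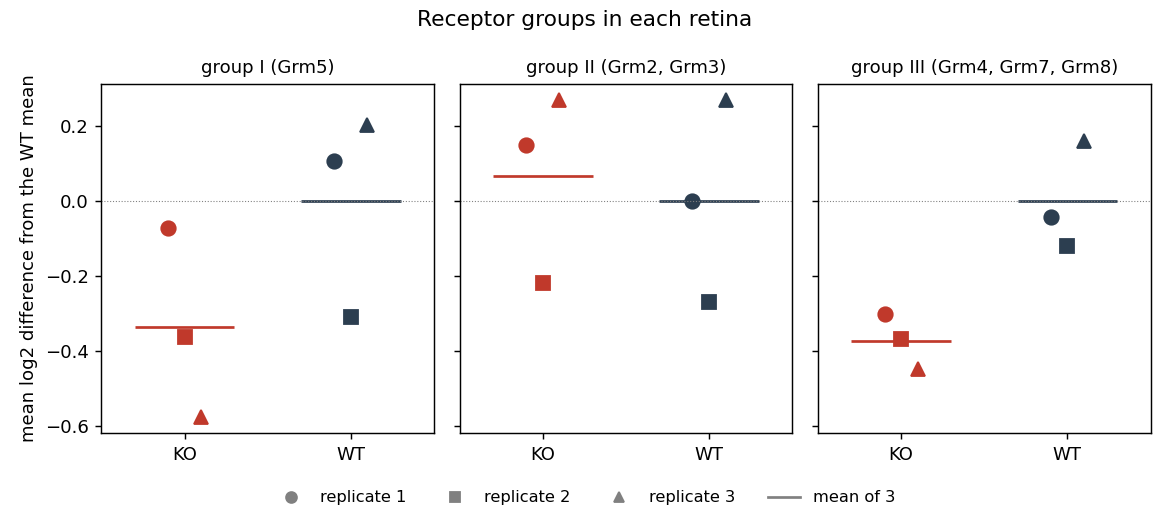
Mean log2 difference from the WT mean (vertical axis) over the members of group I, II and III in each retinal sample, with the replicate number as the symbol and a line at the mean of 3. The KO values of group III lie between -0.45 and -0.30, below all WT values, and those of group II spread from -0.22 to 0.27, beside -0.27 to 0.27 in WT.

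Grm6, the receptor of ON bipolar cells and the other group III gene, had KO values of 9.63, 9.77 and 9.72 and WT values of 10.32, 10.24 and 10.49 in replicates 1 to 3 (probe set 17249234), a log2 fold change of -0.65 (standard error 0.16) without overlap. On its second probe set (17262413) the KO values were 7.15, 6.81 and 6.86 and the WT values 7.70, 7.11 and 7.46, which overlapped, with a log2 fold change of -0.48 (standard error 0.20).

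Among the members, profiles over the 6 samples were most alike for Grm5 and Grm7 (17461448), with Pearson r = 0.95, and for Grm4 and Grm8, also with 0.95. Within the genotypes, after subtraction of each genotype's mean, these correlations were 0.95 and 0.86. The 2 Grm7 probe sets had an r of 0.57 over the 6 samples and 0.88 within the genotypes. Grm3 had an r between -0.40 and -0.12 with Grm4, Grm5, Grm7 (17461448) and Grm8, and 0.53 with Grm2. Within the genotypes its r with these genes was positive, at 0.54, 0.25, 0.45 and 0.25 in that order, and 0.73 with Grm2. All points share the arrays and their range of intensities, and the correlations are descriptions.

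Genes with the nearest profiles were sought among about 16200 probe sets with a mean log2 intensity of at least 6. Nearest to Grm8 were Gna14, a G protein alpha subunit of the Gq class (r = 0.997), the liver X receptor gene Nr1h3 (0.994) and Prdm15 (0.993). Nearest to Grm7 were Tacr1, the receptor for substance P (0.998), Csf2ra (0.994) and Mypn (0.992), and nearest to Grm5 were Dlgap1, a scaffold of the postsynaptic density (0.996), Mtmr4 (0.995) and Spred2 (0.994). Grm2 stood close to Zdhhc23 (0.999), Dhrs3 (0.998) and Prpsap1 (0.996), but 467 probe sets had an r over 0.95 with it. Such probe sets numbered 290 for Grm5, 119 for Grm7, 38 for Grm4 and 27 for Grm8. The profiles of Grm2, Grm5 and Grm7 were thus common ones, and their nearest genes are few among many. Grm3 had only 7 such probe sets, led by Zwilch (0.972), Gpr37l1, a receptor of astrocytes in the brain (0.962), and Fam228b (0.960).

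Nearest to Grm4 were Kif26b (0.997), Hsf4 (0.993) and a probe set of Mip (17246088, 0.993). Hsf4 is a heat shock factor and Mip a water channel, both known for the lens. Their log2 fold changes were -0.57 (standard error 0.19) and -0.42 (standard error 0.18), each with a nominal p under 0.05 in limma, beside 0.961% of all probe sets lower. Both were picked for profiles like that of Grm4, which was lower in every KO sample, so that their lower values follow from the choice. On a list of 14 lens markers, with 1 probe set per gene, every KO mean was lower (median log2 fold change -0.75), and 0 passed at a nominal p under 0.05. Their summed intensity was 22769, 11849 and 36466 in KO replicates 1 to 3, against 33591, 17074 and 64096 in WT replicates 1 to 3. On the log2 scale this sum had an r of 0.53 with Grm4, and the other Mip probe set (17238318), with the larger variance, had 0.65. This sum was lowest in the samples numbered 2 of either genotype. Grm4 was lowest in KO replicate 3 among KO and in WT replicate 1 among WT samples. Within the genotypes, Grm4 had an r of 0.996 with Mip probe set 17246088 and of 0.977 with Hsf4. The part of lens tissue in the Grm4 difference was not tested.

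Markers of retinal cell types are set beside these values. Of all probe sets, 51.8% had a lower mean in KO. At a nominal p under 0.05 in limma, 0.961% were lower and 0.897% higher, and without overlap 3.67% were lower and 1.98% higher. Of the photoreceptor markers 7 of 10 had a lower mean in KO (median log2 fold change -0.10), and of the bipolar cell markers 7 of 8 (-0.12), with 0 past a nominal p of 0.05 in either list. Without overlap, 1 photoreceptor marker was lower and 1 higher. Starburst amacrine markers were lower in 4 of 5 (-0.14), with summed intensities of 1491 to 1907 in KO and 1383 to 2019 in WT samples. General amacrine markers were lower in 7 of 8 (-0.10), with the tyrosine hydroxylase gene Th higher at a nominal p under 0.05 and without overlap (log2 fold change 0.57, standard error 0.17). Mueller glia markers were lower in 6 of 8 (-0.09), 1 of them, Abca8a, at a nominal p under 0.05 and without overlap (-0.46, standard error 0.16). Ganglion cell markers were lower in all 9 measured (-0.40), with sums of 6719 to 9378 in KO and 8812 to 11560 in WT. Of these markers, 3 passed at a nominal p under 0.05 and 2 were free of overlap. Horizontal cell markers were lower in 4 of 4 (-0.29), 1 of them at a nominal p under 0.05 and 2 without overlap. Myelin markers were higher in 5 of 5 (0.69), 1 of them at a nominal p under 0.05 and 3 without overlap. Astrocyte markers were split, 2 lower and 2 higher (0.02). In whole retina RNA, fewer cells of a type cannot be told apart from less receptor RNA per cell, and the part of these shifts in the receptors' differences was not tested.

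The signalling partners of the receptors were described from 4 lists. Proteins that bind the receptors, among them the Homer scaffolds of group I and the adhesion proteins Elfn1 and Elfn2 of group III, had a lower mean in 9 of 10 genes, with a median log2 fold change of -0.16. None of the 10 passed in limma at a nominal p under 0.05 and none was free of overlap. The neurochondrin gene Ncdn (-0.22, standard error 0.17), the PDZ scaffold gene Grip1 (-0.20, standard error 0.17), Grasp, which codes for tamalin (-0.25, standard error 0.21), and Elfn1 (-0.21, standard error 0.20) had the smallest p-values. Elfn1 read 9.77, 9.34 and 9.34 in KO replicates 1 to 3 and 9.74, 9.44 and 9.90 in WT replicates 1 to 3, with overlap.

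In the Gi/o pathway, through which groups II and III act, the KO mean was lower for 18 of 20 genes (median -0.15). Of these, 0 passed at a nominal p under 0.05 and 3 had KO values below all WT values, beside the 3.67% of all probe sets. Gnao1, the alpha subunit of Go, read 12.27, 12.14 and 11.97 in KO replicates 1 to 3 and 12.48, 12.33 and 12.44 in WT replicates 1 to 3. Its log2 fold change was -0.29 (standard error 0.16, unadjusted p = 0.104 from limma). The adenylyl cyclases Adcy1 (-0.28, standard error 0.17) and Adcy4 (-0.26, standard error 0.17) and the potassium channel gene Kcnj5 (-0.31, standard error 0.20) came next by p.

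In the Gq pathway of group I, the KO mean was lower for 7 of 9 genes (median -0.08), and 0 passed at a nominal p under 0.05 or were free of overlap. The phospholipase C genes Plcb3 (-0.19, standard error 0.18), Plcb1 (-0.18, standard error 0.17) and Plcb2 (-0.17, standard error 0.19) had the smallest p-values, followed by the protein kinase C gene Prkcb (-0.08, standard error 0.17). Of the receptor kinases, arrestins and RGS proteins, which end G protein signals, the KO mean was lower for 9 of 13 (median -0.08), with 0 past a nominal p of 0.05 and Rgs11 free of overlap. Rgs11, a partner of Grm6 signalling in ON bipolar cells, had the smallest p of the 4 lists (log2 fold change -0.37, standard error 0.17, unadjusted p = 0.059 from limma), with KO values of 9.09, 9.45 and 9.15 and WT values of 9.71, 9.52 and 9.57. The next were Rgs4 (-0.41, standard error 0.35), Gnb5 (0.20, standard error 0.17) and Rgs8 (-0.18, standard error 0.18). No gene of the 4 lists passed over all probe sets (limma, adjusted p = 0.99991 each), and a lower mean was also found in 51.8% of all probe sets.

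**Figure D4:**
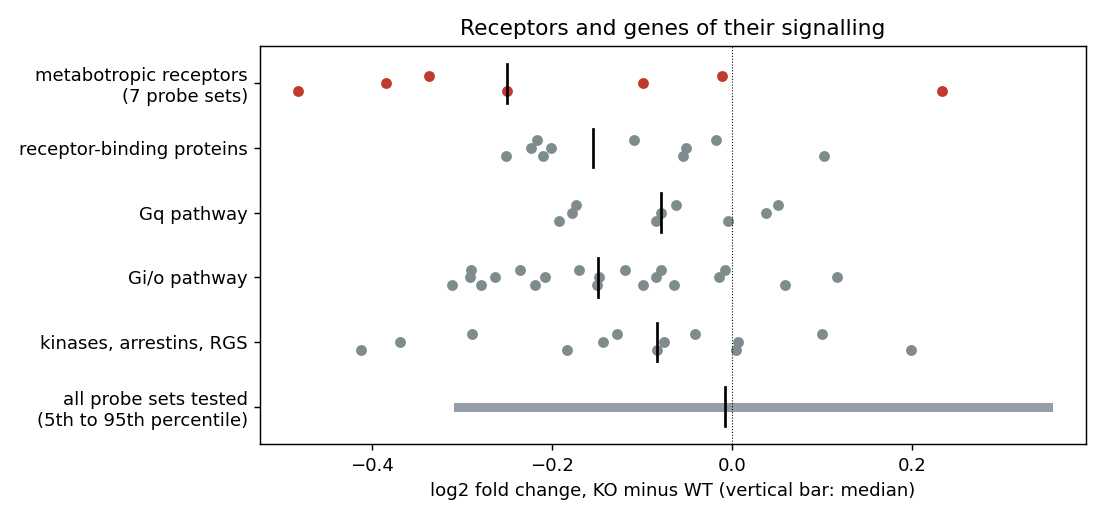
Log2 fold change (horizontal axis, KO minus WT) of the 7 receptor probe sets (red) and of the genes in 4 lists of their signalling (gray), with the median as a vertical bar and the 5th to 95th percentile of all probe sets at the bottom. The receptors run from -0.48 to 0.23 and the binding proteins from -0.25 to 0.10, while all probe sets run from -0.30 to 0.35 between these percentiles.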

How the data were processed

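Retinal RNA of 3 KO and 3 WT samples was hybridized to 1 array per sample. The deposited intensity values were made by the authors from CEL files with RMA, which corrects background, applies quantile normalization and summarizes probes. Package version and genome build are not given in the sources used here. RMA usually yields log2 values, but these 41345 probe sets ran from about 8 to 17460, so they were read as linear and log2 was taken. Symbols came from the platform annotation, and probe sets with several symbols (1820) or none (16004) were left out. Genotypes were compared in limma 3.58.1 (lmFit and eBayes, R 4.3.3), two-sided, with Benjamini-Hochberg adjustment over 23521 probe sets. The fit was tested on simulated data. Exact permutation tests (scipy 1.17.1) used all 20 ways of choosing 3 of 6 samples. Where 1 probe set per gene was needed, the one with the largest linear variance was taken. Named genes were the members, Sirt6, Grm6, the 4 list genes of smallest p and the 3 nearest profiles, without predicted and RIKEN symbols. The members and lists were chosen with earlier results of these data known. Listed genes were matched by symbol or RefSeq synonym (GRCm38.p6), and those without a probe set of 1 symbol were not analysed here. Same-numbered KO and WT samples share a mark in the labels' descriptions, so the replicate number was run as a block too. Their deviations from the genotype means correlated (r = 0.63, 0.74 and 0.19 for numbers 1 to 3). KO replicate 1 also correlated with WT replicate 3 (0.51), and pairs with only 1 sample numbered 2 had an r between -0.66 and -0.19. The values thus set the samples numbered 2 apart more than they match the numbers. Other alternatives were the t-test the methods name, repeated quantile normalization, median centring, filters, priors, array weights, an interquartile range covariate, linear values and leaving out samples. The number of arrays limits the precision.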

Additional observations from a re-analysis of the deposited data

How the results depend on the processing

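The number of receptor probe sets with an adjusted p under 0.05 was 0 in limma and in each of the 17 alternatives. The number with an unadjusted p under 0.05, which was 2, was also 2 with the replicate number as a block, where Grm7 (17461448) and Grm8 passed beside 3.54% of all probe sets lower. It was 1 with median centring (beside 0.731% of all probe sets lower) and with a trended, robust prior (0.918%). With array weights it was 4 (Grm5, Grm7 and Grm8 lower and Grm3 higher, at 0.42). When 1 sample was left out it was between 0 and 3. The 3 were lower without WT replicate 2, beside 3.50% of all probe sets lower and 5.12% higher. With another sample left out it was 0 or 1, beside 0.298% to 1.35% lower. The array weights gave WT replicate 1 a weight of 19.2 against 0.15 for WT replicate 2, their estimation stopped before it converged, and 9.71% of all probe sets were then lower and 9.58% higher. The test of the methods, run probe set by probe set, passed Grm8 and Grm4 but not Grm7 at the same threshold, beside 1.80% of all probe sets lower, and 0 after adjustment. The blocked fit changed no other call among the receptors.

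Probe sets without overlap numbered 3 (beside 3.67% of all probe sets lower), and 2 with median centring (beside 3.17%). When 1 sample was left out they numbered between 3 and 5. The 5 were lower without WT replicate 2, beside 15.9% of all probe sets lower and 16% higher. With another sample left out the count was 3 or 4, beside 5.5% to 10% lower and 2.8% to 6.65% higher. Without both replicates numbered 2 it was 7 of 7 (6 lower and 1 higher, beside 19.5% and 21.1% of all probe sets). The separated pairs between receptor groups numbered 5, with 4 under repeated quantile normalization and 3 where Grm7 was taken from its other probe set. They numbered 5 or 6 when samples were left out. No share over all pairs of probe sets stands beside these counts. Of the 4 signalling lists 0 genes passed unadjusted, between 0 and 3 when 1 sample was left out (Kcnj5, Grk5 and Rgs11, lower without WT replicate 2, beside 3.50% of all probe sets lower) and 3 without both replicates numbered 2 (the same genes, beside 2.75%). Sirt6 kept a log2 fold change of -2.61 to -2.27 when 1 sample was left out, -2.44 with median centring and -2.67 without both replicates numbered 2, but among the 9 alternatives run for it, its adjusted p stayed under 0.05 only without KO replicate 2 and with repeated quantile normalization.

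Of 112 fold changes of the receptors under alternatives, 105 kept their direction, but not all of them could turn. The replicate block, the t-test, the filter of dim probe sets, the fit of all probe sets and the trended, robust prior leave the fold change itself unchanged. The 7 that turned belonged to Grm2 and to the Grm7 probe set without a difference. Grm2 ran from -0.30 to 0.032 when 1 sample was left out. The Grm7 probe set 17469601 ran from -0.14 to 0.10 when 1 sample was left out and was 0.0031 with repeated quantile normalization and 0.014 with the interquartile range as a covariate. The cause of these changes was not tested.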
